A study of Mus musculus with 11 samples.

Results

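Type I interferon response genes were followed in sorted mouse cells that differed in the gene Zbtb46, which codes for a zinc finger protein of classical dendritic cells. The genes were 36 named members of the response, and 33 of them had a probe set with exactly 1 gene symbol, out of 19933 genes measured in this way. Where a member had more than 1 such probe set, the brightest over all arrays stood for it, which applied to Irf1 alone. Isg15 and Gbp2 were reported only by probe sets shared with another gene, and Ifi44 had no listed probe set. The expression of these 3 members is not analysed here.

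Type I interferons are secreted proteins that signal through a receptor built from Ifnar1 and Ifnar2, the kinases Jak1 and Tyk2, and the transcription factors Stat2 and Irf9. These factors bind a DNA element, the interferon-stimulated response element (ISRE), and switch on genes that detect foreign nucleic acid, block viral translation and replication, present antigen and recruit lymphocytes. Irf7 amplifies the production of interferon, while Usp18, Socs1 and other products restrain the receptor. Many cells, dendritic cells (DC) among them, are known to keep a low level of this program without infection.

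All mice were on a C57Bl/6 background and were taken at steady state, with no infection or treatment. WT mice were Zbtb46+/+, Het mice Zbtb46 gfp/+ and KO mice Zbtb46gfp/gfp, so that Het and KO cells both carried the gfp insertion that WT cells lacked. From bone marrow 3 lineage-negative, CD117-positive stages of red cell development were sorted in each genotype: Pre MegE (CD150+ CD105-), which can still form megakaryocytes, Pre CFU-E (CD150+ with low CD105) and the more mature CFU-E (CD150- CD105+). CD4+ DC were sorted from the spleens of WT and KO mice only, as CD11c+ MHCII+ cells that bore CD4, CD11b and CD172 and lacked B220 and CD8. Each of the 11 groups was 1 array of linear RMA intensities, given here as log2. The median log2 intensity of an array lay between 7.61 and 7.77. No label tells whether arrays of 1 genotype share mice. With 1 array per group there is no spread between replicates. The p-values rest on how far arrays depart from a fit that takes each genotype difference in progenitors as alike at every stage. A difference that changes with stage therefore counts as spread, and the number of arrays limits the precision. All 8 classical DC markers and all 7 CD4+ DC markers were at or above the array median on both DC arrays. The 5 measured erythroid markers summed to 8717 to 9731 intensity units at Pre MegE and 17958 to 18232 at CFU-E. Zbtb46 itself read 9.67 in WT DC and 8.02 in KO DC. In progenitors it read 7.52, 8.14 and 8.87 over the stages in WT, 7.67, 8.30 and 8.62 in Het, and 7.71, 7.70 and 7.50 in KO. No label places its probes relative to gfp.

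The regulatory element that names the pathway could be read in the members' promoters. RefSeq promoter windows of build GRCm38.p6, 250 bases before to 50 after each start, were at hand for 26 of the 36 members. The ISRE core was searched as GAAA, any 2 bases and GAAA in a row on both strands, and the gamma-activated site (GAS), an element bound by STAT dimers, as TTCNNNGAA on both strands. An ISRE core lay in the windows of 13 of 26 members (50%), against 3.99% of 27025 genes in the same table. These 13 include Isg15 and Gbp2, whose expression is not analysed here. Among the members whose expression is analysed, 11 held a core and 12 did not. A GAS lay in those of 4 of 26 members (15.4%), against 9.55% of genes. A match is a description of letters and not a bound site. The sequences below are shown because they carry the element in members from different branches of the response, with the ISRE core in capitals, read in the direction of the gene (as TTTC, 2 bases and TTTC where the core lies on the other strand). Ifit3 (chr19:34583348-34583441, plus strand) and Ifit1 (chr19:34640760-34640838, plus strand) each hold 2 cores. Rsad2 (chr12:26456538-26456597, minus strand), Stat2 (chr10:128270251-128270310, plus strand) and Cxcl10 (chr5:92349068-92349127, minus strand) hold 1 each. Bst2 (chr8:71537562-71537627, minus strand) holds 2 that overlap, and its GAS shares 3 bases with them.
Ifit3: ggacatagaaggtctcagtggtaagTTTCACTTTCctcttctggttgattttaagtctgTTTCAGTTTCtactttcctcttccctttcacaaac
Ifit1: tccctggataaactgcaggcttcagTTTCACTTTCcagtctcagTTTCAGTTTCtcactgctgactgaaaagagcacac
Rsad2: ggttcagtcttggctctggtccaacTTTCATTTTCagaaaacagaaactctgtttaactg
Stat2: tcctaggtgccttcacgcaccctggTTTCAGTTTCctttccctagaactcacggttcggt
Cxcl10: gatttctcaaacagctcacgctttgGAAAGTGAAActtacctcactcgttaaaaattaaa
Bst2: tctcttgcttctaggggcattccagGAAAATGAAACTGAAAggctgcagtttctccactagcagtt
Irf1 (chr11:53769899-53769957, plus strand) and Ifit2 (chr19:34550444-34550486, plus strand) held a GAS and no ISRE core in this window, with the GAS in capitals.
Irf1: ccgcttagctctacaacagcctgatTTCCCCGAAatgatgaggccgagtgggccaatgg
Ifit2: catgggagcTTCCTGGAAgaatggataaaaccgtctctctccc

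In splenic CD4+ DC most interferon response genes read lower in the KO than in the WT, with 1 array of each and therefore no test. Before any filter, 31 of 33 members were below 0 in KO minus WT, against 47.5% of all 19933 genes, and the median member differed by -0.37 where the median gene differed by 0.01. Rtp4, Ifit3, Oas2, Ifit2, Samd9l, Lgals3bp and Ifit1 were lower by more than 1.5-fold, and no member was higher by that much. Cxcl10 (0.49) and Oasl1 (0.02) were the members above 0. Over genes at or above the array median on at least 1 DC array, 6 of 27 members were lower past 1.5-fold against 1.77% of 10554 genes, and 0 were higher against 0.758%. Of these 27 members 25 were below 0, as were 61.2% of genes, with medians of -0.40 and -0.05. With both arrays at or above the median, 21 of 23 members were below 0 (62.3% of genes) and 3, Oas2, Samd9l and Lgals3bp, were lower past 1.5-fold (1.29%). Fewer cells of a type and less RNA per cell cannot be told apart in bulk samples.

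**Figure D1:**
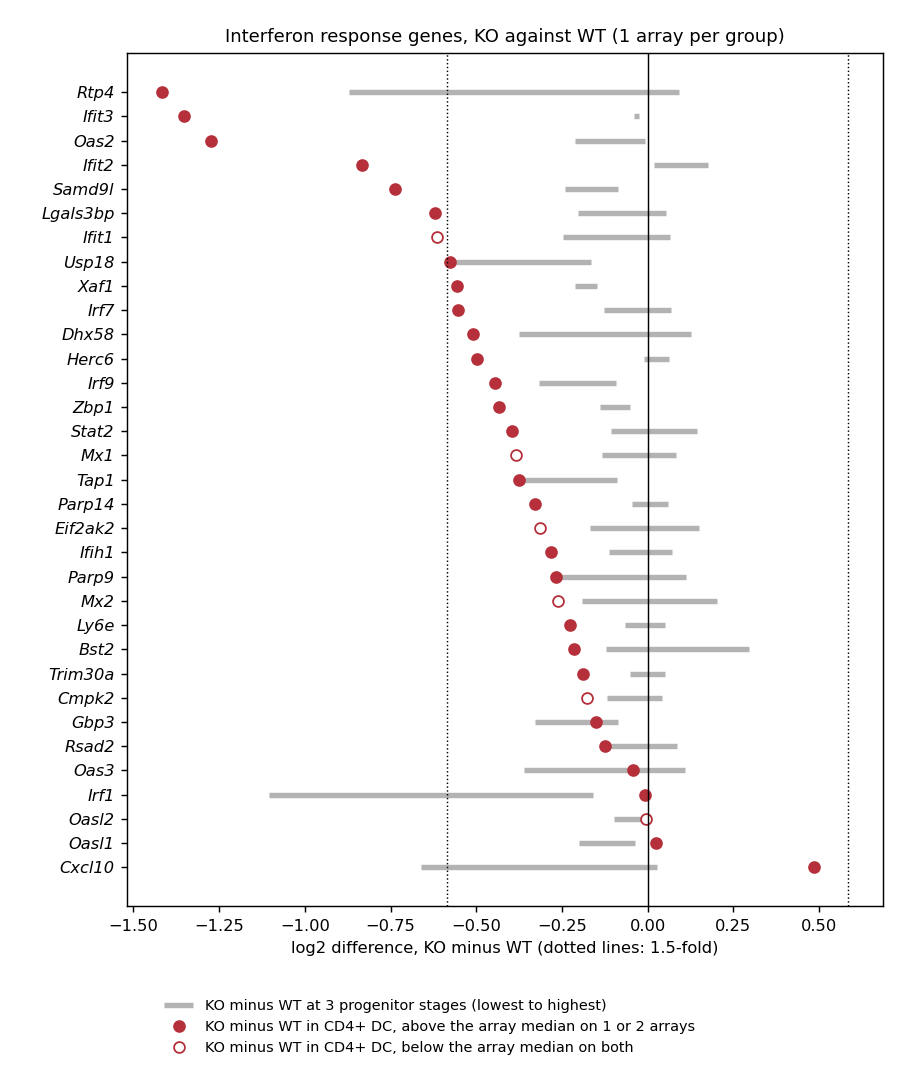
KO minus WT log2 difference of the 33 measured members. Red circles give CD4+ DC (1 array per genotype; open circles lie below the array median on both arrays), grey bars the range of the same difference over the 3 progenitor stages, and dotted lines 1.5-fold. Rtp4, Ifit3 and Oas2 lie farthest to the left, between -1.42 and -1.27, and Cxcl10 farthest to the right at 0.49.

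Among the antiviral effectors, Rtp4, an interferon-induced protein that restricts flaviviruses, read 8.70 in WT DC and 7.28 in KO DC (-1.42, 2.67-fold). Ifit3, of the family that binds foreign RNA and blocks its translation, read 8.89 and 7.54 (-1.35, 2.55-fold). Oas2, an oligoadenylate synthetase that activates RNase L, read 9.46 and 8.19 (-1.27, 2.41-fold). For these 3 genes the KO array stood apart from WT by more than 2-fold. Ifit2, another RNA-binding family member, read 8.02 and 7.18 (-0.83). Its relative Ifit1 read 7.32 and 6.70 (-0.61), below the median on both arrays. The KO readings of Rtp4, Ifit2 and Ifit3 were below the array median of 7.64, and only their WT DC readings reached the median. The probe sets of Rtp4 and Ifit3 read lower elsewhere, down to 6.43 and 5.51 on progenitor arrays. Their KO DC readings were thus not the lowest these probe sets gave. Whether the folds of the 3 genes are too small or too large cannot be told from 1 array per genotype. Ifit3 has a near-identical copy in the genome, Ifit3b, which read 5.09 and 4.22, and cross-hybridisation between such copies, which the Oas, Mx, Gbp and interferon alpha families have too, was not tested.

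Other effectors differed by less than 1.5-fold or were level. Rsad2, or viperin, which inhibits the replication of many viruses, read 9.94 in WT DC and 9.82 in KO DC (-0.12). Oas3, another oligoadenylate synthetase, read 7.68 and 7.63, and Oasl1, a member of the same family that lacks synthetase activity, read 8.41 and 8.43. Bst2, or tetherin, which holds budding virions at the cell surface, read 9.12 and 8.91 (-0.22). The GTPases Mx1 (7.60 and 7.21, -0.38) and Mx2 (7.03 and 6.77, -0.26) were below the array median in both genotypes. So were the kinase gene Eif2ak2 (7.57 and 7.25, -0.31), which codes for PKR, and the mitochondrial nucleotide kinase gene Cmpk2 (7.07 and 6.89, -0.18). Oasl2 read 6.98 in both and had the same value on 4 of the 11 arrays.

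The transcription factors of the response were lower by less than 1.5-fold or level. Irf7, the amplifier of interferon production, read 9.42 in WT DC and 8.87 in KO DC (-0.55). Irf9 read 9.81 and 9.36 (-0.44), and its partner Stat2 read 10.63 and 10.23 (-0.40). Irf1, which is also induced by interferon gamma, read 11.16 and 11.15. Irf7, Irf9 and Stat2 were thus lower in the KO, and Irf1 was not.

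Of the members that sense foreign nucleic acid, Dhx58, Zbp1 and Ifih1 also read lower in the KO. The Oas genes and Eif2ak2, given above as effectors, are not counted here. Dhx58, which codes for LGP2, a regulator of RNA sensing, read 9.37 in WT DC and 8.86 in KO DC (-0.51). Zbp1, a sensor of Z-form nucleic acid, read 9.17 and 8.73 (-0.43). Ifih1, which codes for the double-stranded RNA sensor MDA5, read 10.23 and 9.95 (-0.28). This did not extend to the wider list of 19 sensors and inducers at or above the median, whose median difference was -0.05 with 10 below 0.

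The members that act through ubiquitin, ADP-ribose or other routes were lower too. Usp18, which removes Isg15 from proteins and dampens the receptor, read 10.74 and 10.16 (-0.58), just inside 1.5-fold. Herc6, a ligase that attaches Isg15 in the mouse, read 9.15 and 8.65 (-0.50). The ADP-ribosyltransferase genes Parp9 and Parp14 differed by -0.27 and -0.33. Samd9l, an antiviral and growth-restraining gene, read 9.09 and 8.35 (-0.74), and Xaf1, a pro-apoptotic gene, read 9.18 and 8.62 (-0.56). Lgals3bp, a secreted glycoprotein gene, read 9.88 and 9.26 (-0.62). Smaller differences were read for Tap1 (-0.37), the transporter that loads peptides on MHC class I, Trim30a (-0.19), Gbp3 (-0.15) and Ly6e (-0.23). Cxcl10, the chemokine that recruits activated T cells, was the exception and read 9.26 in WT and 9.75 in KO.

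**Figure D2:**
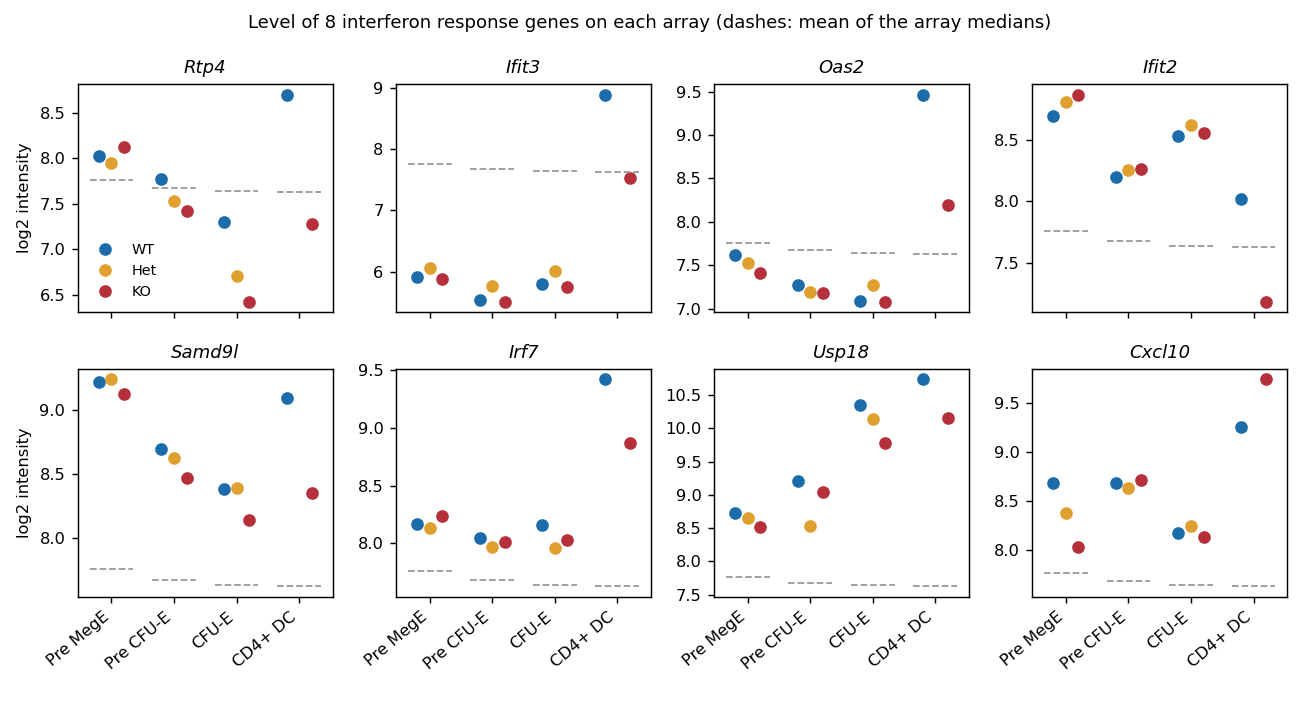
Log2 intensity of 8 members on each of the 11 arrays, by cell type on the horizontal axis and by genotype in colour; dashes give the mean of the array medians for that cell type. In CD4+ DC the KO point lies under the WT point for 7 of the genes and above it for Cxcl10, while in progenitors the genotypes of Ifit3, Oas2 and Irf7 lie close together.

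Members with an ISRE core in the promoter window had a median DC difference of -0.19 over 9 genes at or above the array median on 1 of the arrays (1 past 1.5-fold, Ifit3), and members without a core one of -0.53 over 10 genes (3 past 1.5-fold), with no test of the difference. Rtp4 and Oas2 have no window in the table. Of the genes whose ISRE cores are printed above, Ifit3 differed by -1.35, Stat2 by -0.40, Bst2 by -0.22, Rsad2 by -0.12 and Cxcl10 by 0.49. Ifit1, also printed, differed by -0.61, but was below the array median on both arrays and so outside the 9 genes. With a GAS alone Ifit2 differed by -0.83 and Irf1 by -0.01.

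Other genes that interferon induces were also mostly lower in KO DC, whereas the receptor genes were not. Of 68 other measured interferon-stimulated genes, 59 were below 0 in KO minus WT DC, against 47.5% of all 19933 genes. Of the 68, 10 were lower past 1.5-fold, against 1.24%. These 10 were Ifi44l (9.11 in WT and 8.11 in KO), Ifit3b, Slfn5 (8.83 and 7.97), Phf11d (8.67 and 7.87), Ifi27l2a (8.39 and 7.63), Ms4a4c (11.31 and 10.56), Lgals9 (9.19 and 8.49), Ddx60 (8.39 and 7.71), Ifi27 (10.36 and 9.68) and Oas1b (7.59 and 6.95), all of them named after their values were seen. Of 13 receptor and signalling genes 0 passed 1.5-fold in either direction, with a median difference of 0.07. The receptor chain Ifnar1 read 11.06 in WT DC and 11.63 in KO DC (0.57), and Ifnar2 read 11.40 and 11.58 (0.18). Jak1 (-0.06), Tyk2 (-0.16) and the inhibitor Socs1 (0.12) lay close to 0. Of 21 genes for sensors and inducers 0 passed 1.5-fold. The RNA sensor gene Ddx58 read 10.62 and 10.23, the adaptor gene Ticam1 9.07 and 9.55, and the endosomal receptor genes Tlr7 and Tlr9 differed by 0.22 and 0.35. Of 13 interferon genes 11 were below the array median on both DC arrays; the other two, Ifna5 (8.47 and 8.61) and Ifnl2 (8.95 and 9.33), were not lower in the KO.

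Markers of other cell types were read on the same pair of arrays. The 9 measured monocyte and macrophage markers summed to 16726 intensity units in WT DC and 15895 in KO DC, and 9 and 8 of them were at or above the array median. Within that list C1qa (-0.55), C1qb (-0.78), C1qc (-0.80), Vcam1 (-0.62) and Fcgr1 (-0.78) were lower in the KO, while Cd14 (0.89) and Csf1r (0.35) were higher. The 7 measured plasmacytoid DC markers summed to 3344 and 3101, 6 of 7 at or above the median on each array, with Siglech at 0.29, Ccr9 at -0.35 and Spib at -0.35. Of 6 CD8+ DC markers 3 were at or above the median in WT and 1 in KO. B cell markers summed to 1669 in WT and 2110 in KO, with Ms4a1 at 0.97 and Cd79a at -0.69. The erythroid gene Alas2 differed by -0.89 and the neutrophil genes S100a8 and S100a9 by -0.58 each, while their lists summed to 1728 and 1719 and to 1078 and 976. The classical DC markers summed to 64477 and 65931. The part of these markers in the interferon response difference was not tested.

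Whether the KO difference of DC departed from that of progenitors was tested with limma over all 11 arrays, with the lone DC arrays assumed to vary like the progenitor arrays. Of 28 members in this fit, 6 were called lower (adjusted p under 0.05), against 3.01% of 11560 genes, and 0 were called higher, against 1.56%. These were Oas2, Ifit2, Samd9l, Lgals3bp, Irf7 and Herc6. Oas2 entered the fit only through the DC arrays and was below the median on all 9 progenitor arrays. Over genes that also reached the median on 2 progenitor arrays, 5 of 25 members were lower, against 2.8% of 10701 genes, and 0 higher, against 1.37%. At an unadjusted p under 0.05, 15 of 28 members and 2303 of 11560 genes passed in either direction. The KO difference in DC lay below that at every progenitor stage for 21 of 28 members, against 41% of genes, and above it at every stage for 3, against 23.9%.

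For Oas2 KO minus WT was -1.27 in DC and -0.21 to -0.01 over the progenitor stages, and the differences departed by -1.17 (SE 0.125, limma adjusted p = 0.0027). For Ifit2, -0.83 in DC stood against 0.02 to 0.18, a departure of -0.92 (SE 0.098, limma adjusted p = 0.0027). With every progenitor array of Oas2 below the median, a genotype difference there might not be seen, and its departure largely restates the DC pair. Samd9l departed by -0.55 (limma adjusted p = 0.020), Lgals3bp by -0.54 (0.033), Irf7 by -0.52 (0.028) and Herc6 by -0.52 (0.038). Each of these 6 genes had the same sign of departure against all 3 stages. Rtp4 departed by -1.04, as much as Ifit2, but with an SE of 0.277 and a limma adjusted p of 0.072, since its own KO minus WT ran from 0.09 to -0.87 over the progenitor stages. Cxcl10 departed by 0.71 (limma adjusted p = 0.13) and Irf1 by 0.68 (0.25). Ifit3, Ifit1, Mx1, Mx2 and Oasl2 did not reach the median on 2 arrays and were not in the fit. Without the WT Pre CFU-E array or without the KO Pre MegE array 2 members were called lower, and without the KO Pre CFU-E array 3. Oas2 and Ifit2 were called under every alternative in which they could be fitted (14 of 14 each). None of these alternatives left out a DC array, so the lone WT and KO DC readings were the same source in all of them.

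In the same fit 5 of 60 other interferon-stimulated genes were called lower, against 3.01% of 11560 genes. They were Slfn5 (-1.07), Phf11d (-0.81), Ms4a4c (-0.71), Lgals9 (-0.67) and Ddx60 (-0.52). Of these 5 only Lgals9 also reached the median on 2 progenitor arrays, and the values of the other 4 largely restate the DC pair. Ccl5 (0.58) and Shisa5 (0.45) were called higher, against 1.56% of genes. Over the 49 of these genes that also reached the median on 2 progenitor arrays, 1 was called lower, against 2.8% of 10701 genes. That 1 is near the background, and 2 were called higher, against 1.37%. Of 13 receptor and signalling genes Ifnar1 was called higher (0.63, limma adjusted p = 0.0076) and 0 were called lower; Ifnar2 departed by 0.23, Jak1 by -0.09, Tyk2 by -0.26 and Socs1 by 0.01, and none of these passed. Tank (0.38) was the one called gene of 20 sensors and inducers.

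In erythroid progenitors no interferon response gene passed the test between genotypes. KO minus WT was called for 0 of 25 members in either direction in limma's additive fit of stage and genotype, against 0.121% of 10701 genes lower and 0.0187% higher. Het minus WT was called for 0 of 25 as well, against 0.028% and 0.00934%. At an unadjusted p under 0.05, 8 of 25 members passed in each comparison, all of them lower than WT. In either direction 614 of 10701 genes passed for KO and 566 for Het. Both comparisons use the same WT arrays, so they are given side by side and not as 2 separate pieces of evidence. The 8 members that did not reach the array median on 2 progenitor arrays were Ifit1, Ifit3, Oas2, Oasl2, Rsad2, Mx1, Mx2 and Zbp1.

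Irf1 had the lowest adjusted p in both comparisons. Its level in WT, Het and KO was 10.78, 10.57 and 10.62 at Pre MegE, 10.27, 9.73 and 9.48 in Pre CFU-E cells, and 9.65, 8.64 and 8.55 in CFU-E cells. On this brighter of its probe sets WT was the highest array at each stage. The gap widened from -0.16 to -1.10 for KO and from -0.22 to -1.01 for Het. The fit takes the gap as alike at every stage, so its widening counts as spread and adds to the SE. Over the stages KO minus WT was -0.69 (SE 0.150, limma adjusted p = 0.24) and Het minus WT -0.59 (SE 0.150, limma adjusted p = 0.69). Without the WT Pre MegE array Irf1 alone was called, with a KO difference of -0.91 (limma adjusted p = 0.045). The second probe set of Irf1, which was dimmer, read 8.49, 8.63 and 8.47 in WT, Het and KO Pre MegE, with Het the highest. It read 7.99, 7.88 and 7.84 in Pre CFU-E and 7.84, 7.67 and 7.71 in CFU-E.

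Rtp4 read 8.03, 7.95 and 8.12 in WT, Het and KO Pre MegE, 7.77, 7.54 and 7.42 in Pre CFU-E, and 7.30, 6.71 and 6.43 in CFU-E. The genotypes overlapped at Pre MegE and lay in the order WT, Het, KO at the later stages, where most arrays were below their median. Gbp3, an interferon-inducible GTPase gene, differed between KO and WT by -0.09, -0.33 and -0.28 over the stages (-0.23 over the 3 stages, SE 0.057, limma adjusted p = 0.38). Usp18 read 8.73, 8.66 and 8.52 in WT, Het and KO Pre MegE, 9.21, 8.53 and 9.04 in Pre CFU-E, and 10.36, 10.14 and 9.78 in CFU-E.

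By stage, with 1 array per group and no test, KO was lower than WT past 1.5-fold for Cxcl10 at Pre MegE, for Irf1 in Pre CFU-E cells, and for both Irf1 and Rtp4 in CFU-E cells, that is 1, 1 and 2 of 25 members against 0.131%, 0.0748% and 0.243% of genes. Het was lower past 1.5-fold for 0 members at Pre MegE, for Usp18 in Pre CFU-E cells and for Irf1 in CFU-E cells, against 0.0654%, 0.0561% and 0.0654%. No member was higher past 1.5-fold in KO or Het at any of the 3 stages, against at most 0.0654% of genes. The median member difference was -0.04, -0.06 and -0.17 over the stages for KO and -0.07, -0.08 and -0.13 for Het, where the median gene lay within 0.01 of 0. KO was below WT for 14, 17 and 20 of the 25 members in turn, against 48.2%, 42.1% and 50.9% of genes, and Het for 16, 19 and 18, against 51.8%, 44.3% and 52.5%. The 14 members at Pre MegE are near that background. The order WT over Het over KO held for 4 members at Pre MegE (15% of genes), 6 in Pre CFU-E cells (8.17%) and 12 in CFU-E cells (23.7%), and the opposite order for 5 (16.3%), 1 (11.4%) and 0 (20.6%). The 12 at CFU-E were Dhx58, Eif2ak2, Gbp3, Ifih1, Irf1, Irf9, Oas3, Oasl1, Parp9, Rtp4, Tap1 and Usp18.

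**Figure D3:**
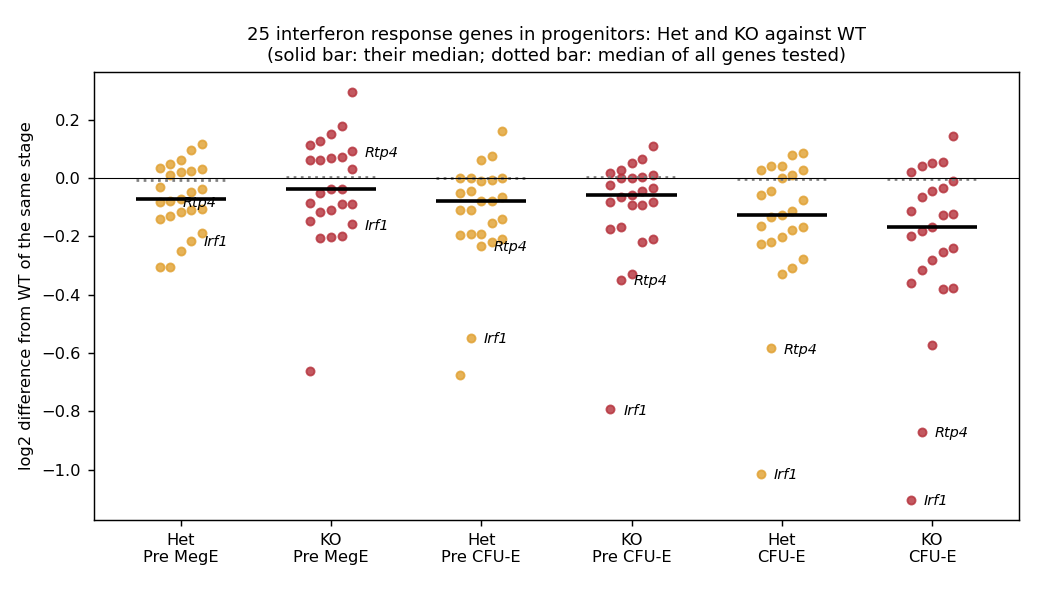
Log2 difference from the WT array of the same stage for the 25 members tested in progenitors, for Het (yellow) and KO (red) at each stage. Each point is 1 gene, solid bars are the member medians and dotted bars the medians of all genes tested; the member medians lie between -0.04 and -0.17, and Irf1 is the lowest point at CFU-E in both genotypes.

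Neutrophil markers were read on the same arrays. All 8 were at or above the median on every progenitor array, and at CFU-E they summed to 21064 intensity units in WT, 18895 in Het and 16642 in KO. At Pre CFU-E the sums were 24157, 20103 and 19620, and at Pre MegE 41142, 40071 and 35083. Stem cell markers summed to between 23752 and 24996 at Pre MegE and between 4445 and 4693 at CFU-E, and B cell markers to between 3069 and 3298 and between 1417 and 1506. The part of these lists in the interferon response differences between genotypes or stages was not tested.

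Across the erythroid stages more members fell than rose. From Pre MegE to CFU-E 15 of 25 members fell and 6 rose, against 35.1% and 41.5% of genes (limma, adjusted p under 0.05), with a member median of -0.29 and a median of 0.05 over all genes. From Pre MegE to Pre CFU-E 14 fell and 6 rose (29.3% and 37.1% of genes), and from Pre CFU-E to CFU-E 9 fell and 4 rose (25.3% and 18.7%). The 4 that rose at the second step are near the background. Trim30a, Irf1, Tap1, Rtp4, Xaf1, Samd9l, Parp14 and Gbp3 fell at both steps, whereas Oasl1 and Cmpk2 rose at both.

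Trim30a, a regulator of inflammatory signalling, averaged 11.34, 10.45 and 9.34 over the stages and fell by 1.99 (SE 0.054, limma adjusted p = 1.9e-09). Irf1 averaged 10.66, 9.83 and 8.94, a difference of -1.71 (SE 0.150, limma adjusted p = 4.3e-06); its dimmer probe set read 8.49, 7.99 and 7.84 in WT. Tap1 averaged 11.29, 10.78 and 9.96 (-1.33). For these 3 genes the highest CFU-E array was below the lowest Pre MegE array. Rtp4 averaged 8.03, 7.57 and 6.81 (-1.22) and Xaf1 8.27, 7.70 and 7.18 (-1.09), both ending below the array median. Samd9l fell by 0.89, Parp14 by 0.81 and Gbp3 by 0.38.

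The 6 members that rose over the span were Usp18, Cmpk2, Oasl1, Lgals3bp, Eif2ak2 and Bst2. Usp18 averaged 8.64, 8.93 and 10.09 and rose by 1.46 (SE 0.138, limma adjusted p = 7.8e-06), with the call made at the second step. Cmpk2 averaged 8.36, 8.91 and 9.33 (0.98) and Oasl1 8.47, 9.16 and 9.32 (0.84). Lgals3bp (0.48), Eif2ak2 (0.39) and Bst2 (0.36) rose at the first step and were not called at the second. Ifit2 fell by 0.55 at the first step and rose by 0.33 at the second, and Cxcl10 rose by 0.32 and then fell by 0.50. The first step of Cxcl10 was 0.00 in WT, 0.26 in Het and 0.69 in KO, and it was called in 11 of 16 alternative settings. The factors of the ISRE complex moved little: Irf9 fell by 0.29 over the span, and Stat2 differed by -0.13 and was not called. Ifih1 (0.08) and Ly6e (-0.04) were not called either.

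**Figure D4:**
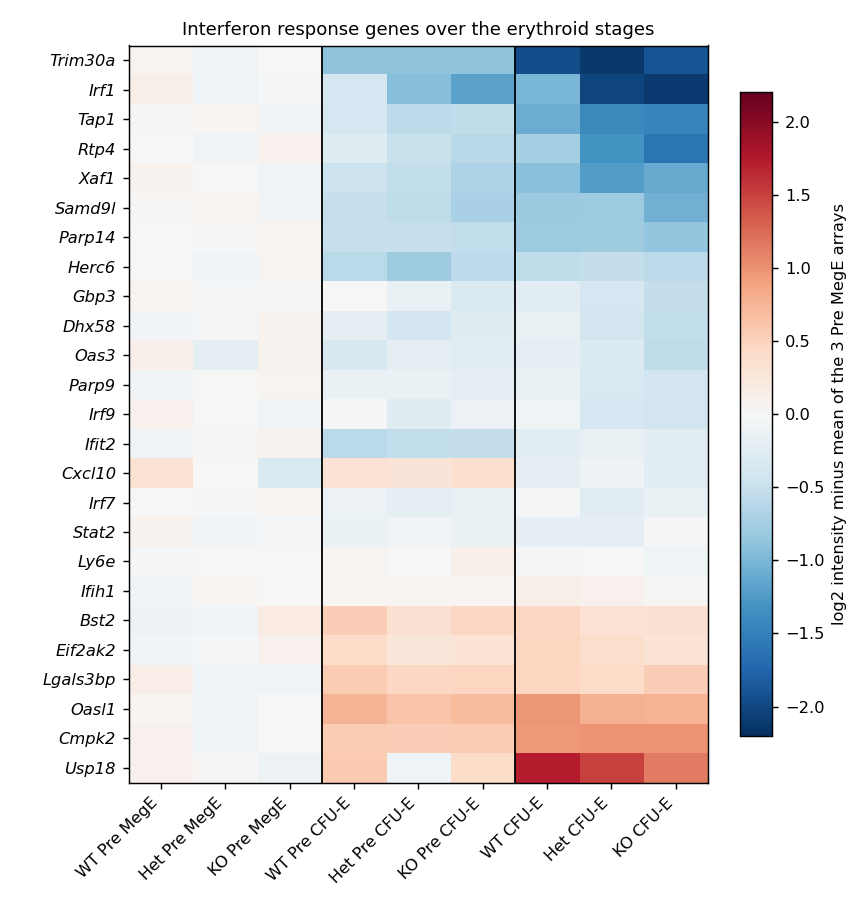
Log2 intensity of the 25 members tested in progenitors, as the difference from the mean of the 3 Pre MegE arrays (colour scale), on each of the 9 progenitor arrays; vertical lines separate the stages and genes are sorted by the mean change to CFU-E. Trim30a, Irf1, Tap1 and Rtp4 are the deepest blue at CFU-E and Usp18 the deepest red.

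These counts were sensitive to scaling and to single arrays at the first step. With each array centred on its median, which moved the median gene of that step from 0.04 to 0.12, 9 members were called lower in place of 14; without the KO Pre MegE array 8 were called lower, and without the WT Pre CFU-E array 9.

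Other genes of the pathway were also lower in later progenitors more often than higher. Of 49 other interferon-stimulated genes 35 fell and 7 rose from Pre MegE to CFU-E, against 35.1% and 41.5% of all genes tested. The same shares stand beside the receptor and sensor counts below. Ifi203 fell by 2.57, Epsti1 by 2.06, the immunoproteasome subunit gene Psmb8 by 1.89 and Cd274, which codes for PD-L1, by 1.85, while Isg20 rose by 0.95, Pnpt1 by 0.81, Mitd1 by 0.76 and Daxx by 0.47. At the first step Epsti1 (-1.47), Cd274 (-1.32), Ifi203 (-1.14) and Uba7 (-1.02) fell most and Pnpt1 (0.56), Daxx (0.50), Mitd1 (0.49) and Nmi (0.40) rose most. At the second step these were Psmb8 (-1.59), Ifi203 (-1.43), Sp100 (-0.70) and Tnfsf10 (-0.69), and Ube2l6 (0.64), Sp140 (0.63), Isg20 (0.58) and Mitd1 (0.27). Of 13 receptor and signalling genes 9 fell and 0 rose over the span: Ifnar1 fell by 0.83, Ifnar2 by 0.17, Socs1 by 0.15 and Tyk2 by 0.11, and Jak1 (-0.05) was not called. Of 17 sensors and inducers 11 fell, led by Ddx58 (-2.56) and Aim2 (-2.16), and 3 rose.

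Between cell types, most members read higher in DC than in progenitors. With limma over all 11 arrays, 16 of 28 members were called higher and 7 lower in DC, against 25.3% and 64.6% of 11560 genes. Of the 16, Rsad2, Zbp1 and Oas2 entered the fit only through the DC arrays, so that they had to be high there. Over genes that also reached the median on 2 progenitor arrays, 13 of 25 members were higher and 7 lower, against 19.6% and 69.7% of 10701 genes. The median member differed by 0.42 and the median gene by -0.59, a shift that quantile normalization reduced to -0.11. Against the median gene, 5 of 28 members were lower: Lgals3bp, Cmpk2, Eif2ak2, Ifit2 and Oasl1. Spleen and bone marrow, the sorts and the cell types changed together and cannot be told apart.

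Rsad2 separated the cell types most. It read 9.94 and 9.82 in WT and KO DC and between 6.19 and 6.65 in progenitors, a difference of 3.47 (SE 0.068, limma adjusted p = 6.7e-12), and no progenitor array reached the array median. Zbp1 read 9.17 and 8.73 in DC and 6.96 to 7.20 in progenitors (1.89). Oas2 read 9.46 and 8.19 in DC and 7.08 to 7.62 in progenitors (1.55). Zbp1 and Oas2, like Rsad2, were below the median on every progenitor array, and their differences are best read as lower bounds. Ifit3, outside the fit, read 8.89 and 7.54 in DC and 5.51 to 6.06 in progenitors, and Mx1 read 7.60 and 7.21 in DC and 5.22 to 5.35 in progenitors.

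Of members in the progenitor fit, Irf1 was higher in DC by 1.26, Usp18 by 1.18, Cxcl10 by 1.10, Irf7 by 1.04, Dhx58 by 0.98 and Stat2 by 0.76. The DC levels of Usp18 (10.74 and 10.16) overlapped those of CFU-E cells (9.78 to 10.36), and those of Irf1 (11.16 and 11.15) lay above every progenitor array. The dimmer probe set of Irf1 read 8.27 and 8.34 in DC, within its progenitor range of 7.67 to 8.63. Rtp4 differed by 0.48 and missed the threshold (limma adjusted p = 0.052). On the other side Lgals3bp read 9.88 and 9.26 in DC and 11.26 to 11.92 in progenitors (-2.15), Cmpk2 7.07 and 6.89 against 8.27 to 9.35 (-1.90), and Eif2ak2 7.57 and 7.25 against 8.98 to 9.50 (-1.87), the last 2 genes from DC readings below the array median. Ifit2 was lower in DC by 0.92, and its WT DC array (8.02) lay just below the lowest progenitor array (8.19). Irf9 (-0.49) was called lower as deposited and higher after quantile normalization (0.20). The direction of Samd9l (0.05, not called) changed to -0.23 without the WT DC array, and that of Bst2 (-0.06, not called) to 0.58 with quantile normalization.

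**Figure D5:**
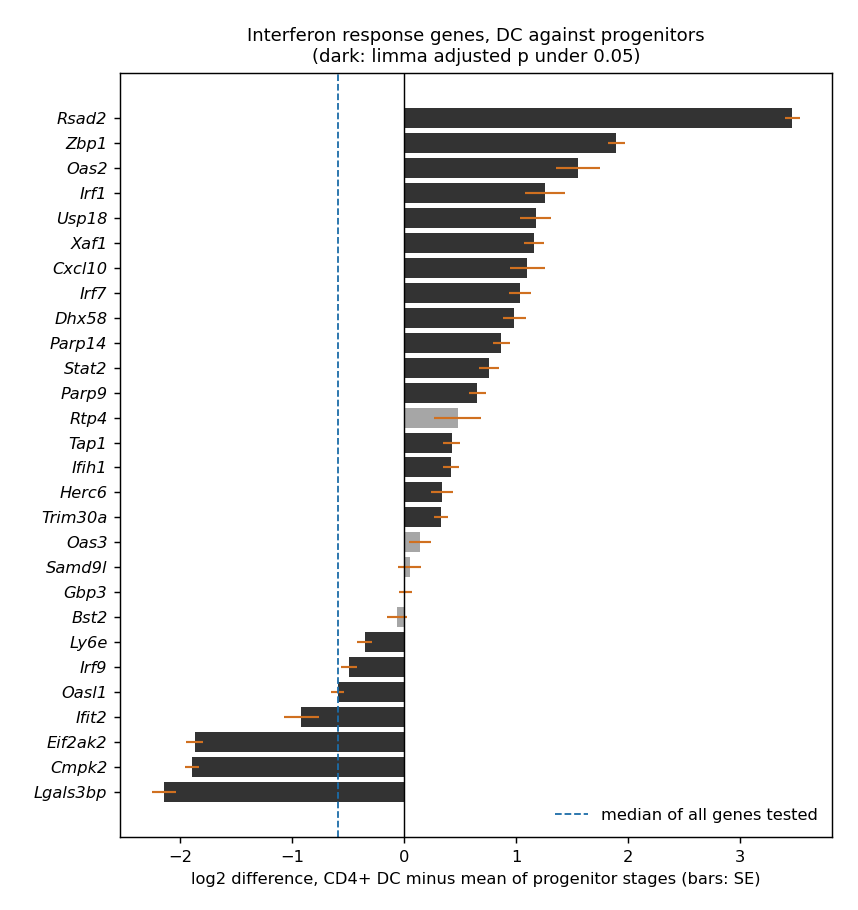
Log2 difference of CD4+ DC from the mean of the 3 progenitor stages for the 28 members in the 11-array fit; bars start at 0, lines give the standard error, dark bars have a limma adjusted p under 0.05 and the dashed line is the median of all genes tested (-0.59). Rsad2 (3.47) is the longest bar to the right and Lgals3bp (-2.15) the longest to the left; the direction of Irf9 turns with quantile normalization.

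Most other genes of the pathway were also higher in DC. Of 60 other interferon-stimulated genes 35 were called higher and 20 lower, against 25.3% and 64.6% of 11560 genes, shares that also stand beside the receptor and sensor counts below. Ifi205 (6.31), Ms4a4c (6.24), Ms4a6b (4.75) and Gbp4 (4.36) were the largest differences upward. Lgals9 (-3.75), Nt5c3 (-2.33), Pml (-2.19) and Pnpt1 (-2.18) were the largest downward. The 4 named upward were below the filter in progenitors and had to be high in DC, so their values are best read as lower bounds. Over the 49 genes that also reached the median on 2 progenitor arrays 24 were higher and 20 lower, against 19.6% and 69.7% of 10701 genes. Of 13 receptor and signalling genes 9 were higher and 3 lower: Ifnar1 by 1.54, Socs1 by 0.37, Tyk2 by 0.27 and Ifnar2 by 0.16, with Jak1 at 0.00. Of 20 sensors and inducers 13 were higher, among them Tlr7 (5.11), Tlr9 (4.34), Unc93b1 (3.99) and Sting1 (3.40), and 6 were lower; Tlr7 and Tlr9 were below the filter in progenitors too.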

How the data were processed

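RNA of 11 sorted mouse samples was measured on single-colour Affymetrix arrays, biotin-labelled with the Ambion/Affymetrix WT Expression Kit per the labels' protocols. The authors deposited linear RMA intensity values, RMA being named in the submitters' processing notes (version, filters, centring: not given in the sources used here). All values were positive and on a linear scale, and log2 was taken here with no further scaling. Of 29674 probe sets, 21780 had 1 gene symbol in the platform annotation, 1618 several and 6276 none listed. Genes entered a fit when at or above the array median on at least 2 of its arrays (10701 genes for 9 progenitor arrays, 11560 for 11), or on 1 of the DC pair (10554).

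Tests were those of limma 3.58.1 under R 4.3.3 (two-sided, lmFit and eBayes, Benjamini-Hochberg over all genes of the fit), with an additive fit of stage and genotype (4 residual degrees of freedom), one of cell type and genotype over 11 arrays (5), and one with separate WT DC and KO DC terms (4). These scripts were tested on simulated data, and other scalings, filters, probe set rules, array weights, fold thresholds and each array left out were tried. In the fit with separate DC terms only progenitor arrays were left out. Pairs of single arrays were compared as differences, with 1.5-fold as the threshold. DC minus progenitors means DC minus the mean of the 3 stages. Promoters come from RefSeq, build GRCm38.p6; for the array annotation no build was named. The members, gene lists and tests were chosen with earlier results of these data known. All members were to be named, the core receptor genes, and the 4 largest rises and falls of the other interferon-stimulated genes among called genes of 1 sign in every block.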

Additional observations from a re-analysis of the deposited data

Results flagged for a closer look

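For 6 genes the KO difference in CD4+ DC departed from that in progenitors in a test of the departure itself (limma over 11 arrays, adjusted over all genes). The departures were -1.17 for Oas2, -0.92 for Ifit2, -0.55 for Samd9l, -0.54 for Lgals3bp, -0.52 for Irf7 and -0.52 for Herc6. Oas2 was below the array median on all 9 progenitor arrays and entered the fit only through DC, so its value largely restates the DC pair. The test takes the spread from progenitor arrays, because DC had 1 array per genotype. For the same reason no setting left out a DC array. Over the alternatives tried, the adjusted p ran from 2.3e-05 to 0.018 for Oas2 and from 1.6e-05 to 0.018 for Ifit2, which were called in 14 of 14 settings each. Samd9l was called in 13 of 15, Irf7 in 11 of 15, and Lgals3bp and Herc6 in 8 of 15 each, with adjusted p up to 0.058, 0.087, 0.10 and 0.11 in turn.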

How the results depend on the processing

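Alternatives to scaling, filter, probe set, array weights and the arrays used changed the following counts of members. Called lower from Pre MegE to Pre CFU-E, 14 became 9 with centred arrays and 9 with quantile normalization, and 8 to 15 when each array was left out in turn. Of 10701 genes, 3134 were called lower in the main fit, 2522 with centred arrays and 3236 with quantile normalization. Called lower in DC against progenitors, 7 became 4 with quantile normalization and 4 with genes at the median on every array, a filter that removes genes low in DC. All genes called lower there numbered 7463 in the main fit, 5583 with quantile normalization and 5915 with that filter. Array weights, whose estimation stopped before its convergence tolerance, called 1 member lower in KO (Gbp3) and 1 in Het (Irf1) against WT progenitors. Beside them stood 15 and 31 of 10701 genes. In the DC departure array weights called 16 members lower and 2 higher, beside 2418 and 1235 of 11560 genes. The main fit called 348 and 180 genes there, so calls rose over all genes as well. Quantile normalization called 1 member higher in the DC departure, beside 557 genes. Leaving out each progenitor array in turn gave 0 to 1 lower in KO progenitors, and 2 to 8 lower and 0 to 1 higher in the DC departure. The DC arrays, 1 per genotype, could not be left out of that departure. Signs turned for Irf7 from Pre MegE to CFU-E (0.089), Bst2 (0.58) and Irf9 (0.20) in DC against progenitors with quantile normalization, and for Samd9l there without the WT DC array (range -0.23 to 0.33 with each array left out). For single-array pairs, 3 members were lower in KO DC at 2-fold, beside 21 of 10554 genes, and 18 at 1.2-fold, beside 1403. At 1.2-fold 1 member was higher, beside 762 genes. With both arrays at or above the median (chosen after seeing the data) 3 were lower, beside 127 of 9837 genes. At 2-fold, lower members numbered 0, 0 and 1 for KO over the stages, beside 2, 2 and 5 of 10701 genes. For Het at Pre CFU-E they numbered 0, beside 2 genes. At 1.2-fold lower members numbered 3 and 8 for KO at Pre CFU-E and CFU-E, beside 126 and 610 genes. For Het over the stages they numbered 2, 2 and 5, beside 350, 188 and 148 genes. At Pre MegE 1 member was higher for KO, beside 249 genes. The mean of probe sets left 0 members lower for KO at Pre CFU-E, beside 7 genes. Het CFU-E had 2 lower with centred arrays and 2 with quantile normalization, beside 8 and 10 genes. Other counts stayed within 1.5 times. No paired analysis was possible because each group had 1 array. Where a gene lies under the array median, its fold is limited by signal over background.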
